A study of Oryza sativa with 6 samples.

Results

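Phenylpropanoid synthesis starts from phenylalanine. Phenylalanine ammonia-lyase (PAL) turns phenylalanine into cinnamate, cinnamate 4-hydroxylase (C4H) hydroxylates it, and 4-coumarate:CoA ligase (4CL) makes the CoA ester that feeds lignin, hydroxycinnamates and flavonoids. Chalcone synthase (CHS) and chalcone isomerase (CHI) carry out the opening steps of the flavonoid branch. In roots these products stiffen and seal cell walls, serve in defence and are released as signals to microbes. The 10 loci described here are 6 of the PAL family, 1 for C4H, and 4CL3, CHS1 and CHI. They were chosen by their locus identifiers, out of 37863 loci in the deposited count table, and all 10 had enough counts to be tested. Earlier results of these data were known when the 10 loci and the lists below were chosen. Shares over all loci are therefore set beside them as description only.

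The RNA came from root tips, cut up to 1 cm from the apex, of rice (Oryza sativa cultivar Kitaake) at 15 DAT. Co-cultivated plants shared their hydroponic box with growing Azolla filiculoides, a floating fern that houses nitrogen-fixing cyanobacteria, and control plants had none, under a covered solution surface. Both groups had 13-day-old seedlings at transfer, 4 plants to a box and Yoshida solution without aeration. Each group held 3 libraries, called biological replicates in the labels, with 23477086 to 25120456 estimated counts in co-cultivated libraries and 21551508 to 23703813 in control libraries. The question is whether entry into phenylpropanoid and flavonoid synthesis differed in roots growing under the fern.

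Set against the control libraries, the entry enzymes did not share 1 pattern. Of 10 loci, 4 PAL loci had higher levels in every co-cultivated library than in any control library, with fitted folds of 1.92 to 3.47. Among these 4, Os02g0626600 and Os02g0627100 shared reads, so they are not independent in this and the following counts. The most abundant PAL locus stood at a fold of 0.987, and CHI had the only other fold below 1, at 0.737. At an adjusted p under 0.05 in edgeR's quasi-likelihood test, 0 of the 10 were called, higher or lower; the background over all 24615 tested loci was 1.46% higher and 1.17% lower. Of the 10, 4 had an unadjusted p under 0.05 in edgeR, all higher, against 10.2% of all loci. DESeq2 called these same 4 PAL loci higher, against 6.17% of all loci, and 0 of the 10 lower, against 4.13%. By limma-voom 0 were called, against 1.26% of all loci higher and 1.02% lower. Co-cultivated libraries lay wholly above control libraries for 12.4% of all loci and wholly below for 15.3%. The median log2 fold change was 0.33 over the 10 loci and −0.03 over all tested loci.

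Co-cultivated replicate 2 held the lowest co-cultivated level at all 10 loci, against 36.1% of all tested loci. For 4 of the 10 (PAL Os02g0626100, PAL Os02g0626400, C4H and 4CL3), replicates 1 and 3 lay above every control library while replicate 2 did not, a pattern of 5.3% of all tested loci. The 10 loci together took 1.05%, 0.673% and 1.03% of all estimated counts in co-cultivated replicates 1, 2 and 3, against 0.835%, 0.784% and 0.792% in control replicates 1, 2 and 3. Co-cultivated replicate 2 was therefore below the control libraries in this total, and replicates 1 and 3 were above them. The total rests largely on Os02g0626100, which supplied 55.8% to 69.5% of the PAL counts. The 4 PAL loci without overlap lay above the control libraries in replicate 2 too, which follows from how they were grouped. The spread within the co-cultivated group enters every test below.

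**Figure D1:**
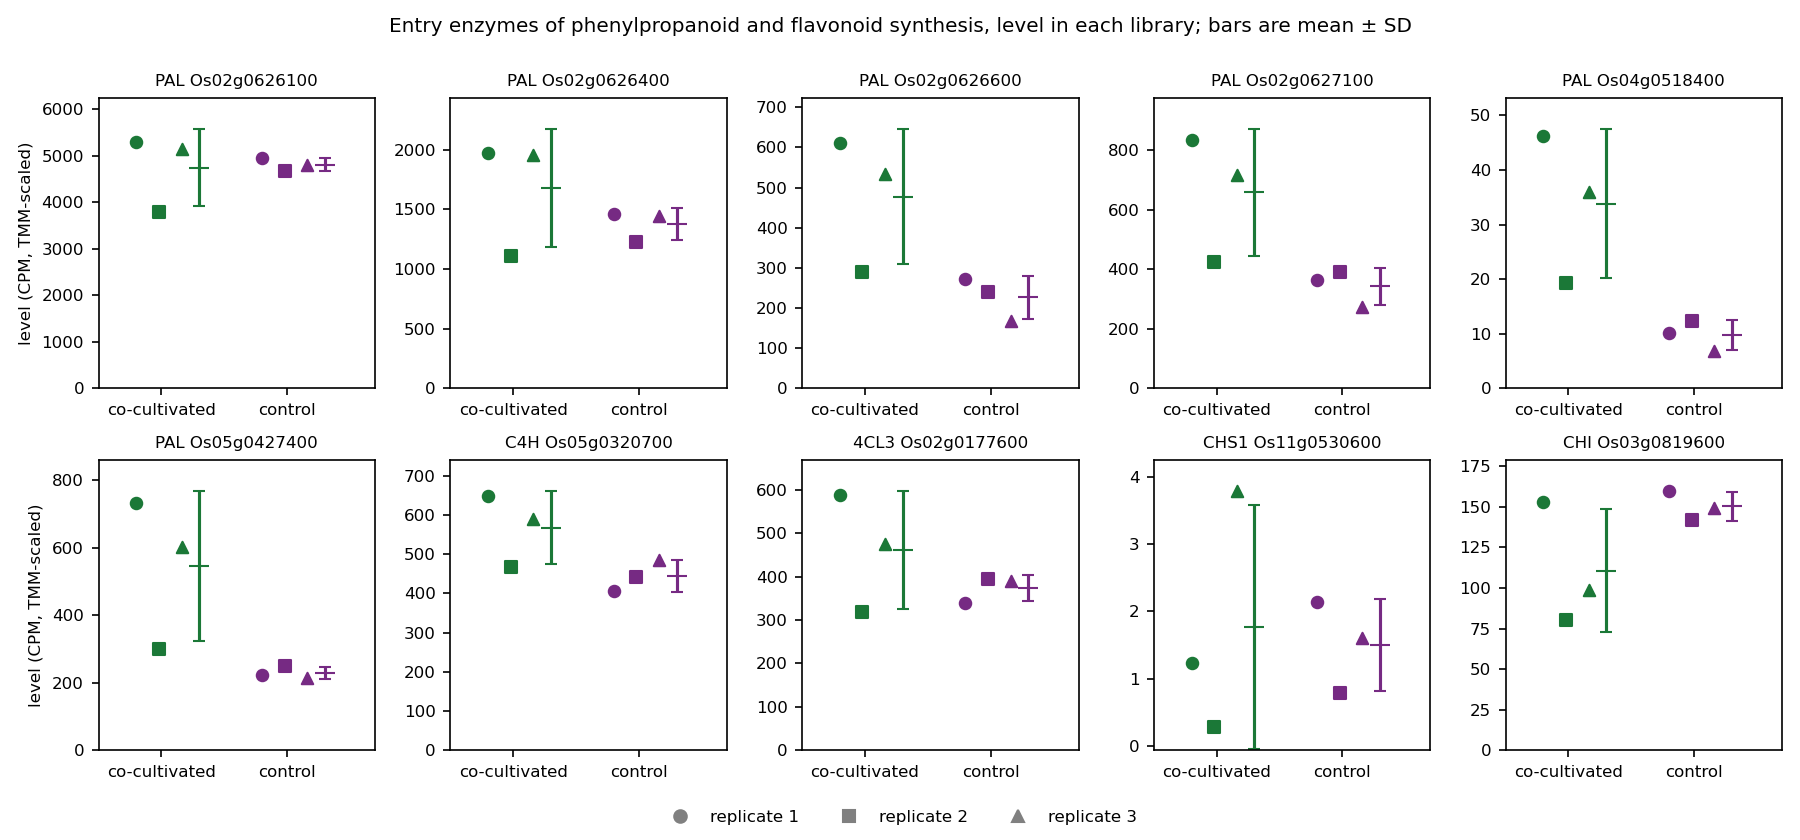
Level of each of the 10 entry enzyme loci in each library (y axis, CPM scaled with TMM factors, a separate scale per panel), with co-cultivated libraries in green, control libraries in purple and bars for mean ± SD (n = 3). PAL Os02g0626600, Os02g0627100, Os04g0518400 and Os05g0427400 have all green symbols above all purple ones, and the green square, co-cultivated replicate 2, is the lowest green symbol in every panel.

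PAL, which commits phenylalanine to this pathway, was represented by 6 loci, of which 4 have neighbouring identifiers on chromosome 2. Levels are given as CPM, counts relative to library size, after scaling with TMM factors. Os02g0626100 was among the 5 loci with most counts in every library. It had 5298, 3800.1 and 5135 CPM in co-cultivated replicates 1, 2 and 3, against 4957, 4672 and 4794 CPM in control replicates 1, 2 and 3. The co-cultivated values lay on both sides of the narrow control range, so the groups overlapped. On the log2 scale the fitted change was −0.02, with a 95% interval of −0.62 to 0.59 (edgeR adjusted p = 0.975).

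Os02g0626400, its neighbour, had 1972, 1112 and 1954 CPM in co-cultivated replicates 1, 2 and 3, against 1464, 1223 and 1442 CPM in the control replicates. Replicates 1 and 3 of the co-cultivated group stood above all control libraries and replicate 2 below them. The fitted change was 0.29 ± 0.28 (log2, SE), with an adjusted p of 0.602 in edgeR.

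Os02g0626600 had 610.1, 289 and 533 CPM in the co-cultivated replicates, against 272, 241 and 168 CPM in the control replicates. Os02g0627100 had 835, 423 and 716 CPM in the co-cultivated replicates, against 365, 392 and 272 CPM in the control replicates. Both loci had no overlap between the groups, though co-cultivated replicate 2 lay close to the highest control library. Their changes were 1.07 ± 0.32 and 0.94 ± 0.29 (log2, SE), with adjusted p of 0.126 and 0.134 in edgeR. By DESeq2 the adjusted p were 0.0179 and 0.0222.

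Some reads of these last 2 loci were not assigned to one alone, and how many is not known. Their estimated counts were not whole in 5 of 6 libraries, yet the pair's sum was whole, within 0.001, in all 6. The summed reads were 32672, 17687 and 31658 for the co-cultivated replicates, against 14618, 13773 and 10431 in the control replicates. Fitted as 1 row, the pair stood at 0.99 ± 0.30 (log2, SE; adjusted p = 0.135 in edgeR), a value that does not depend on how the reads were divided. How each locus of the pair changed alone is uncertain.

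Os05g0427400, a PAL locus on chromosome 5, had 732, 301 and 602 CPM in the co-cultivated replicates, against 225, 249 and 215 CPM in the control replicates. The control libraries were tightly grouped, with an SD of 17.8 CPM around a mean of 229, and every co-cultivated library lay above them (mean 545 ± 221 CPM, SD, n = 3 each). Its fitted change was 1.25 ± 0.32 (log2, SE), with an adjusted p of 0.0909 in edgeR and 0.00375 in DESeq2. Without co-cultivated replicate 2 it was 1.54 and was called by edgeR (adjusted p = 0.0238).

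Os04g0518400, a PAL locus on chromosome 4, had the highest fold of the 10 and few reads. It held 1045, 478 and 911 counts in the co-cultivated replicates, against 231, 267 and 163 counts in the control replicates. In CPM these were 46.2, 19.3 and 36.0 in the co-cultivated replicates, against 10.1, 12.3 and 6.88 in the control replicates. The lowest co-cultivated library was above the highest control library. The change was 1.80 ± 0.36 (log2, SE), with an edgeR adjusted p of 0.0508, next to the threshold of 0.05. The adjusted p was 0.0269 without co-cultivated replicate 2 and 9.22e-05 by DESeq2.

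The make-up of the PAL counts is given next, as the share of each locus in the reads of all 6. Os02g0626100 supplied 55.8%, 63.9% and 57.2% of the counts of the 6 PAL loci in co-cultivated replicates 1, 2 and 3, against 68.0%, 68.8% and 69.5% in the control replicates. Its share was lower in every co-cultivated library than in any control library. The shares are parts of a whole, so higher shares of other PAL loci lower this one, whose own level overlapped between the groups. These are shares of reads, with no correction for transcript length, and are compared across libraries only. Os05g0427400 supplied 6.50% ± 1.34 of the PAL counts in co-cultivated libraries and 3.29% ± 0.332 in control libraries (SD, n = 3 each). Os02g0626600 and Os02g0627100 supplied 5.75% ± 0.797 and 7.97% ± 0.840 in co-cultivated libraries, against 3.24% ± 0.705 and 4.91% ± 0.919 in control libraries. Os02g0626400 held a similar share in both groups, 20.4% ± 1.56 in co-cultivated and 19.7% ± 1.49 in control libraries. RNA was taken from whole root tips, so more cells that use one PAL locus and more RNA of it per cell cannot be told apart.

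**Figure D2:**
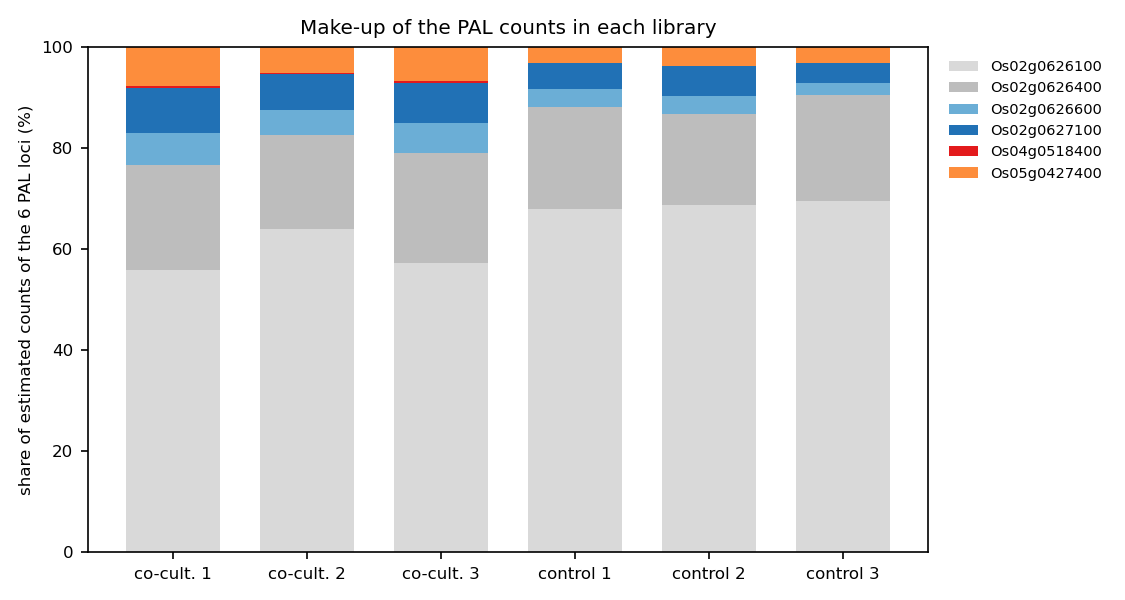
Share of the estimated counts of the 6 PAL loci that each locus supplied (y axis, percent) in each library (x axis, co-cultivated left, control right). The light grey part, Os02g0626100, is 55.8% to 63.9% in co-cultivated libraries and 68.0% to 69.5% in control libraries; Os04g0518400 is at most 0.487% and barely visible.

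Ratios within a library do not depend on how libraries are scaled to each other, so each other locus was set against Os02g0626100. Per 100 counts of Os02g0626100, Os05g0427400 had 13.8, 7.92 and 11.7 counts in the co-cultivated replicates, against 4.53, 5.33 and 4.48 in the control replicates. All co-cultivated libraries were above all control libraries, replicate 2 included. The same held for Os02g0626600, Os02g0627100 and Os04g0518400, with mean log2 differences of 1.07, 0.93 and 1.78. C4H had 12.2, 12.3 and 11.5 counts per 100 of Os02g0626100 in the co-cultivated replicates, against 8.17, 9.46 and 10.1 in the control replicates. In this ratio co-cultivated replicate 2 was level with the others. CHI lay the other way, with 2.89, 2.11 and 1.92 in the co-cultivated replicates, against 3.21, 3.03 and 3.11 in the control replicates. Of 9 ratios, 5 were higher and 1 lower with no overlap. These 6 each had an exact permutation p of 0.10 (two-sided), or 0.15 adjusted over the 9. A p of 0.10 is the smallest that 3 against 3 libraries allow. The ratio was not taken for other loci, so the share of all loci without overlap in it is not known. All 9 ratios have the same denominator, which was itself lowest in co-cultivated replicate 2 (3800.1 CPM). In CPM, the groups overlapped for C4H and CHI. The ratios of Os02g0626400, 4CL3 and CHS1 overlapped between the groups (exact permutation p = 0.30, 0.20 and 0.80).

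**Figure D3:**
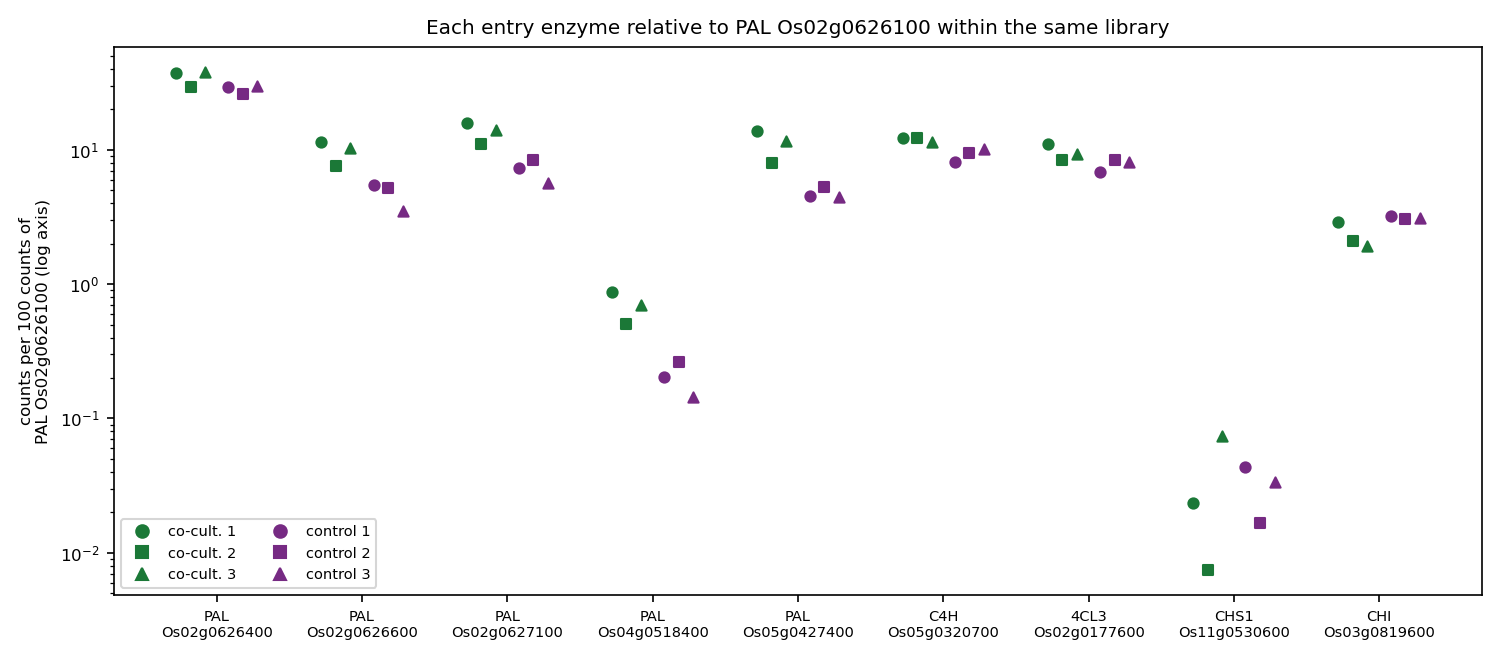
Estimated counts of 9 entry enzyme loci per 100 counts of PAL Os02g0626100 in the same library (y axis, log scale), with co-cultivated libraries in green at the left and control libraries in purple at the right of each locus. Green lies wholly above purple for 4 PAL loci and C4H and wholly below it for CHI.

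C4H, the cytochrome P450 of the pathway's next step, had 647, 466 and 588 CPM in the co-cultivated replicates, against 405, 442 and 486 CPM in the control replicates. Of the co-cultivated libraries, replicate 2 alone lay within the control range. A log2 fold change of 0.35 was fitted (95% interval −0.09 to 0.80, edgeR adjusted p = 0.343). Its co-cultivated values varied least of the 10, with a coefficient of variation of 16.3%, against 9.09% in control libraries.

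4CL3, one of the ligases that activate 4-coumarate, had 588, 318 and 475 CPM in the co-cultivated replicates, against 339.6, 394 and 390.0 CPM in the control replicates. Replicate 2 of the co-cultivated group was the lowest of all 6 libraries and replicates 1 and 3 were the highest. The fit gave 0.30 on the log2 scale (95% interval −0.27 to 0.87, edgeR adjusted p = 0.538).

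CHS1, which joins a 4-coumaroyl unit to malonyl units to make the flavonoid skeleton, was barely expressed. It held 28, 7 and 96 counts in the co-cultivated replicates, against 49, 17 and 38 counts in the control replicates. The co-cultivated group held both the lowest and the highest value. The log2 fold change was 0.23 with a 95% interval of −1.68 to 2.14 (edgeR adjusted p = 0.901), so changes of 2-fold in either direction lie inside the interval. Its sign depended on the setting: without co-cultivated replicate 3 it was −1.0003, without control replicate 2 it was −0.08 and by limma-voom it was −0.33.

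CHI, which closes the chalcone into a flavanone, had 153, 80.2 and 98.8 CPM in the co-cultivated replicates, against 159, 142 and 149 CPM in the control replicates. Replicates 2 and 3 of the co-cultivated group were below every control library and replicate 1 was inside their range. CHI stood at −0.44 on the log2 scale (95% interval −1.01 to 0.13, edgeR adjusted p = 0.351). Omitting co-cultivated replicate 1 gave −0.74 and omitting co-cultivated replicate 2 gave −0.25, with adjusted p of 0.189 and above over all alternatives. CHI was the 1 locus of the 10 that was negative in every setting tried.

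**Figure D4:**
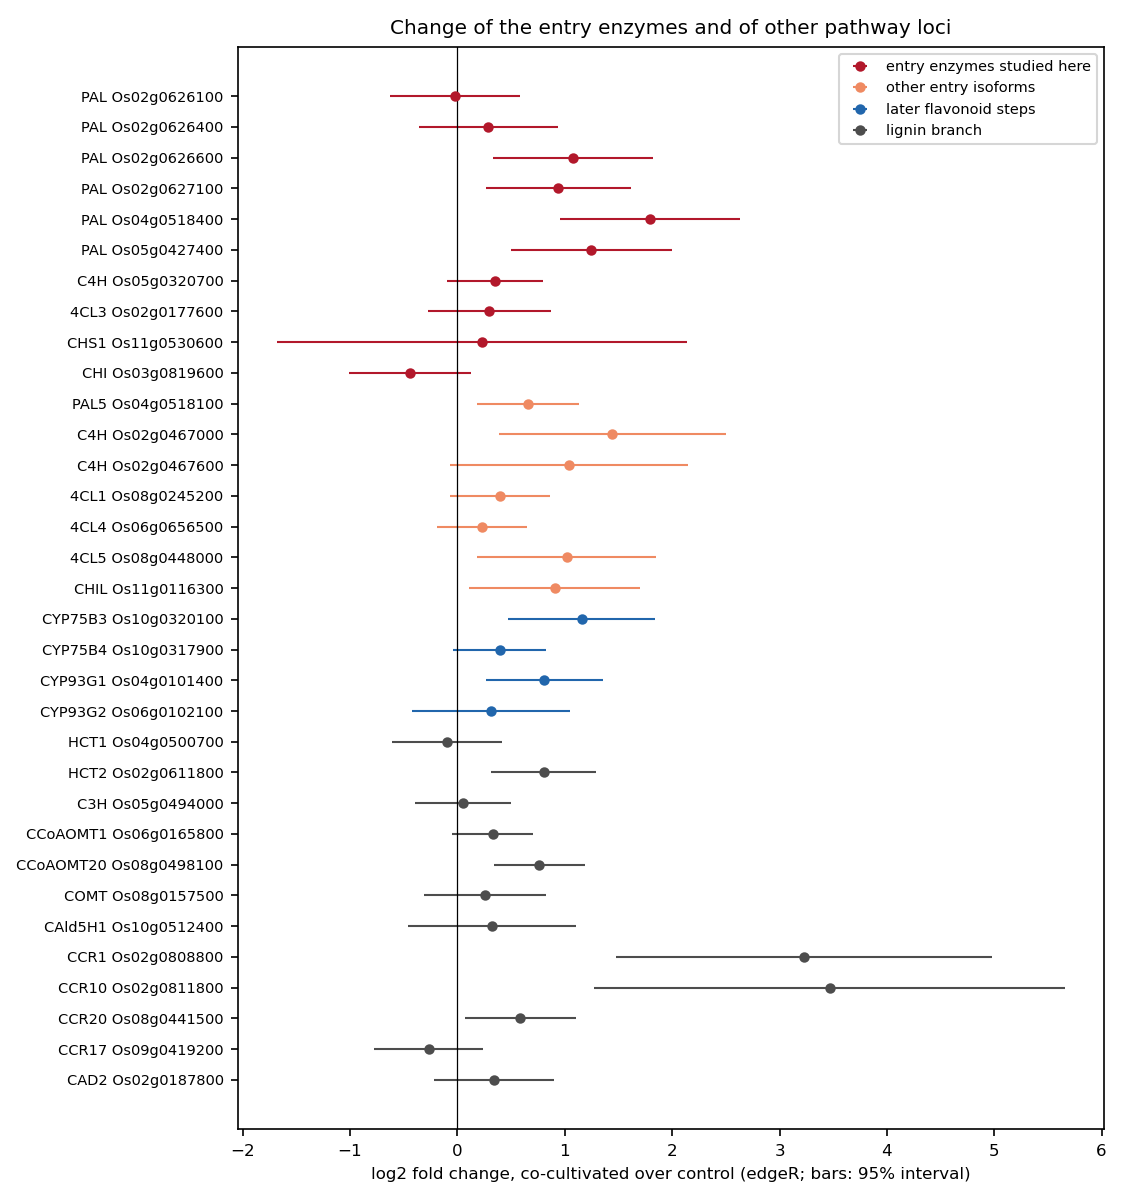
Log2 fold change of co-cultivated over control (x axis, edgeR, bars for 95% intervals without adjustment for multiple tests) for the 10 entry enzymes in red and for 23 tested loci of 3 other pathway lists. The intervals of 4 red PAL loci lie above 0, from 0.26 at the lowest bound, while CHI is at −0.44 and reaches 0.13.

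Other isoforms of the entry steps were read from a list of 12 loci, of which 7 were tested. In edgeR 0 were called and 4 had an unadjusted p under 0.05, against 10.2% of all loci in the higher direction. DESeq2 called 2 higher, against 6.17% of all loci, and limma-voom called 0. All 7 had a positive fold change, against 47.3% of all tested loci, and their median log2 fold change was 0.91. Without co-cultivated replicate 2, 1 of 8 tested was called by edgeR. A locus listed as PAL5 (Os04g0518100) had 379, 281 and 302 CPM in the co-cultivated replicates, against 210.3, 164 and 235 CPM in the control replicates, with no overlap (log2 fold change 0.66, edgeR adjusted p = 0.133). 4CL5, another 4-coumarate ligase, had 159, 67.2 and 193 CPM in the co-cultivated replicates, against 76.6, 66.2 and 64.6 CPM in the control replicates. Its replicate 2 was inside the control range, as for C4H, and the log2 fold change was 1.02 (edgeR adjusted p = 0.171). A pair of loci listed as further C4H genes, Os02g0467000 and Os02g0467600, shared reads in the way of the PAL pair. They summed to 1865, 638 and 1376 counts in the co-cultivated replicates, against 394, 835 and 476 counts in the control replicates, and replicate 2 lay below the highest control library. Os02g0467000 stood at 1.44 and Os02g0467600 at 1.04 on the log2 scale (edgeR adjusted p = 0.139 and 0.269). The former, among the loci called by DESeq2, cleared the control libraries narrowly, at 4.67 CPM in co-cultivated replicate 2 against 4.60 CPM in control replicate 2. How each locus of this pair changed alone is uncertain, and the pair is not independent in the counts of this list. CHS2 and 4CL2 held 0 counts in all 6 libraries, which allows up to 3 counts in each.

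The later flavonoid steps were measured thinly. Of 8 listed loci, 4 were tested, with a median log2 fold change of 0.60, or 0.40 without co-cultivated replicate 1. In edgeR 0 were called and 2 had an unadjusted p under 0.05, against 10.2% of all loci in the higher direction. DESeq2 called 2 higher, against 6.17% of all loci, and limma-voom called 0. The locus listed as CYP75B3 (Os10g0320100), a flavonoid 3'-hydroxylase, had 40.3, 19.8 and 30.9 CPM in the co-cultivated replicates, against 12.5, 17.2 and 11.1 CPM in the control replicates. Its groups did not overlap, and the log2 fold change was 1.16 (edgeR adjusted p = 0.0878). The loci listed as CYP93G1 (Os04g0101400), a flavone synthase, and CYP75B4 (Os10g0317900), a hydroxylase of the tricin route, stood at 0.81 and 0.39 (edgeR adjusted p = 0.118 and 0.285). The loci listed as F3H, DFR and ANS, of the flavonol and anthocyanin routes, held at most 1, 6 and 2.43 estimated counts in any library, and the locus listed as NOMT, which makes the phytoalexin sakuranetin, held 0 in all 6.

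All 12 loci of the lignin branch list were tested. In edgeR 0 were called and 5 had an unadjusted p under 0.05, against 10.2% of all loci in the higher direction. DESeq2 called 4, all higher, against 6.17% of all loci, and limma-voom called 0. Of the 12, 10 were positive, against 47.3% of all tested loci. The median log2 fold change was 0.34, or 0.19 without co-cultivated replicate 1 and 0.58 without replicate 2. CCR1, a cinnamoyl-CoA reductase, held 12, 19 and 12 counts in the co-cultivated replicates, against 3, 0 and 1 counts in the control replicates (edgeR adjusted p = 0.0722). The locus listed as CCoAOMT20 (Os08g0498100), a caffeoyl-CoA methyltransferase, had 1130.0, 912 and 934 CPM in the co-cultivated replicates, against 571, 568 and 613 CPM in the control replicates. Its groups did not overlap and co-cultivated replicate 2 was close to replicate 3 (log2 fold change 0.76, edgeR adjusted p = 0.0758). HCT2, a hydroxycinnamoyl transferase, had 867, 569 and 704 CPM in the co-cultivated replicates, against 446, 370 and 411 CPM in the control replicates (log2 fold change 0.80, edgeR adjusted p = 0.0963). Co-cultivated replicate 2 was the lowest co-cultivated library for 9 of these 12 loci. Of 3 listed MYB regulators, 2 were tested and 0 called or under an unadjusted p of 0.05 in edgeR, with 0 calls by DESeq2 and limma-voom. Os02g0624300 and the locus listed as MYB55 (Os05g0553400) stood at 0.34 and 0.09 (edgeR adjusted p = 0.574 and 0.874), and the third, listed as C1, held 0 counts.

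Marker levels of root, root hair, green and other tissue stand beside these values. The 3 root markers, LSI1, LSI2 and a locus listed as RCC3, summed to 3216 to 5240.4 CPM in co-cultivated libraries, against 1454 to 2272 CPM in control libraries. Of the 3, edgeR called 0, with all 3 at an unadjusted p under 0.05, DESeq2 called 3 higher and limma-voom 0. Over all tested loci, DESeq2 called 6.17% higher and 4.13% lower. In edgeR 10.2% of all loci in each direction had an unadjusted p under 0.05. The root hair markers CSLD1 and EXPA17 summed to 26.6 to 56.0 CPM, against 7.17 to 19.5 CPM in control libraries. Of these 2, edgeR called 0, with both at an unadjusted p under 0.05, DESeq2 called 2 higher and limma-voom 0. Without co-cultivated replicate 3 edgeR called 1. Both lists were lowest in co-cultivated replicate 3 within that group, not in replicate 2. The 7 markers of green tissue summed to 2.79 to 25.0 CPM in co-cultivated libraries, against 12.1 to 28.2 CPM in control libraries. Of 6 tested, edgeR called 0, with 2 at an unadjusted p under 0.05, DESeq2 called 1 lower and limma-voom 0. Of the 7, the locus listed as RBCS2, which was not tested, was at 0 in 3 libraries. The locus listed as RBCS3 was at 0 in co-cultivated replicate 1. RBCS3 and the locus listed as RBCS4 were lower with no overlap, as were 15.3% of all loci, at no more than 0.874 CPM. CAB1R held most of the sum and overlapped between the groups. CESA4, CESA7 and CESA9 of the secondary wall, a destination of lignin, summed to 936, 795 and 965 CPM in co-cultivated replicates 1, 2 and 3. Their sums were 419.5 to 1153 CPM in control libraries. Replicate 2 was the lowest co-cultivated library for all 3 CESA loci. No other marker list had its lowest co-cultivated sum in replicate 2. The 4 markers of dividing cells, CYCB2;1, CYCB2;2, CDKB2;1 and PCNA, summed to 139 to 179.5 CPM, against 96.4 to 226 CPM in control libraries, and CASP1 of the endodermis had 97.8 to 176 CPM, against 34.7 to 218 CPM. Of these 8, 0 were called by edgeR, DESeq2 or limma-voom, and 0 had an unadjusted p under 0.05 in edgeR. The part of tissue make-up in the PAL values was not tested.

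Leaving out single libraries moved the PAL calls only at co-cultivated replicate 2. Without it, edgeR called Os04g0518400 and Os05g0427400, at log2 fold changes of 2.08 and 1.54, and the median over the 10 loci was 0.63. In each of the other 5 fits 0 of the 10 loci were called. The log2 fold changes over these 6 fits ran from 1.51 to 2.08 for Os04g0518400, from 0.98 to 1.54 for Os05g0427400, from 0.86 to 1.33 for Os02g0626600 and from 0.73 to 1.18 for Os02g0627100. Os02g0626100 ran from −0.10 to 0.12.

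**Figure D5:**
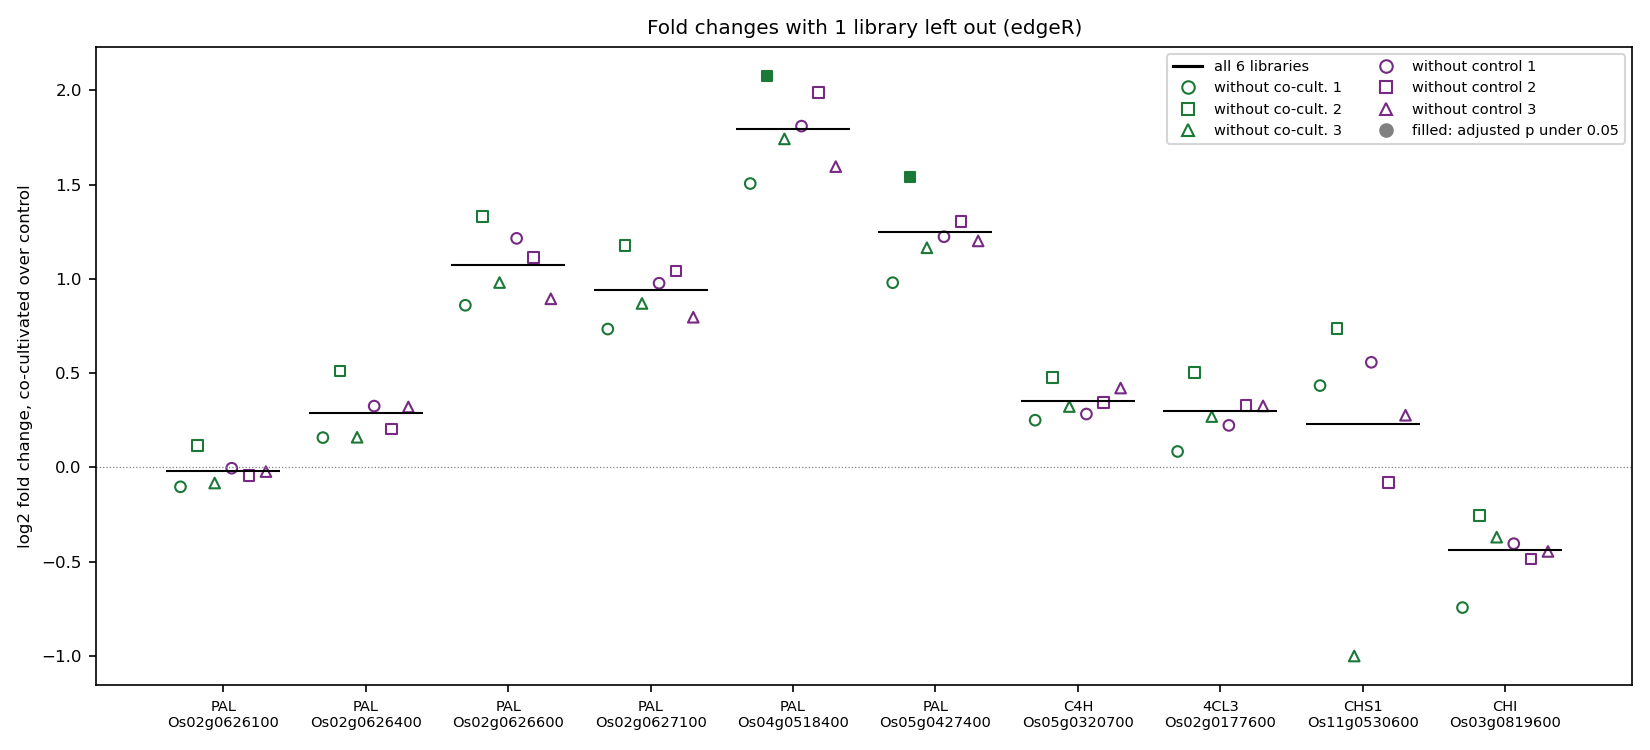
Log2 fold change of co-cultivated over control (y axis, edgeR) for each entry enzyme locus, with all 6 libraries (black line) and with 1 library left out (symbols; filled where the adjusted p was under 0.05). The 2 filled symbols are Os04g0518400 at 2.08 and Os05g0427400 at 1.54, both without co-cultivated replicate 2.

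The mean profile of the 10 loci, as log2 CPM centred on each locus, was 0.60, −0.40 and 0.54 in co-cultivated replicates 1, 2 and 3, against −0.14, −0.26 and −0.33 in control replicates 1, 2 and 3. Among 20014 other loci, Os01g0723600 and Os03g0667100 followed it most closely over the 6 libraries. Their root mean square differences from it were 0.0875 and 0.105 on the log2 scale, against a median of 0.521 over the loci compared. As they were picked for the smallest difference, their place below this median was fixed in advance. Within the 10, Os02g0626400 was nearest to their mean, at 0.159, and CHS1 farthest, at 0.899. Os01g0723600 had 52.8, 27.2 and 60.2 CPM in the co-cultivated replicates, against 35.8, 33.3 and 29.9 CPM in the control replicates.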

How the data were processed

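Root tip RNA of 6 libraries was sequenced from poly-A selected, dUTP strand-marked libraries, per the labels' protocols. The authors deposited 1 table of estimated counts per locus, not scaled between libraries. Per the submitters' processing notes, DESeq2 1.28.1 and the IRGSP-1.0 build were used. What aligned and counted the reads, and with which strand setting, is not stated in these sources. Columns were tied to samples by the labels that carry their names, and 0 were left over. Whole counts had been foreseen, so the estimated counts were rounded to whole numbers for every count test.

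Loci passing filterByExpr (24615) entered 1 model per locus with group as its term (R 4.3.3, edgeR 4.0.16), over all 6 libraries with TMM factors, tested two-sided by quasi-likelihood with Benjamini-Hochberg adjustment over all tested loci, and a threshold of 0.05. Fold changes are co-cultivated over control. DESeq2 1.42.0, limma-voom (limma 3.58.1), other scalings and filters, a robust fit, a replicate block and the omission of each library were alternatives. The tests were tried on simulated data, in which no single library was shifted within its group. No result above rests on that trial. Counts of a few reads carry counting error beyond the spread given.

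The 10 loci and the lists were chosen with earlier results of these data known. Named were the 10 loci, up to 3 loci with the smallest p in each list, and the loci most like the mean profile, of which 2 are printed. Loci named beyond this rule, because a count or a value near 0 needed it, were chosen after their values were seen. Of the 65 pairs of name and locus, 28 had a name that a gene table of the assembly ASM3414082v1 places on the same chromosome in the same order. Names it lacks are given as "listed as", outside the 10 loci. Within the 10, PAL is a family name that was not checked for its 6 loci, and the name C4H (Os05g0320700) is not in that gene table. MYB30 lay on another chromosome there, so Os02g0624300 is given by identifier alone.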

Additional observations from a re-analysis of the deposited data

How the results depend on the processing

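With all 6 libraries edgeR called 0 of the 10 loci. DESeq2 called 4 higher, while RLE scaling, upper-quartile scaling, no count filter and the summing of shared reads (chosen after seeing the data) each called 1 higher, Os04g0518400, at an edgeR adjusted p of 0.04997, 0.0466, 0.0368 and 0.0494. Leaving out single libraries gave 0 to 2. No setting called a locus lower. The log2 fold change of Os02g0626100 turned positive with DESeq2 and RLE scaling (0.0011 in both) and ran from −0.10 to 0.12 without 1 library. That of CHS1 turned negative with limma-voom (−0.33) and a replicate block (−0.20) and ran from −1.0003 to 0.74 without 1 library. The other 8 loci kept their sign in all alternatives run. The cause was not tested.

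Over all tested loci, edgeR called 360 higher and 288 lower and DESeq2 1518 and 1017. Without 1 library the counts ran from 56 to 361 higher and from 83 to 493 lower: 56 and 86 without co-cultivated replicate 1, 226 and 126 without replicate 2, 170 and 118 without replicate 3, 65 and 83 without control replicate 1, 361 and 493 without replicate 2 and 204 and 195 without replicate 3. Replicate numbers were not shown to pair libraries. Deviations of same-numbered libraries correlated at 0.0571, 0.146 and 0.174. Co-cultivated replicates 2 and 3 correlated best with their own number, and replicate 1 with control replicate 3 (0.0762). With a replicate block the calls were 403 higher and 296 lower, among them 0 of the 10 loci and 1 of the 3 root markers. Low counts limit CHS1 and CCR1, with at most 96 and 19 counts in a library.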
